A study of Mus musculus with 16 samples.

Results

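The loss of Ch25h was examined in brain tissue of tau transgenic mice, by RNA sequencing of 4 libraries from Ch25h-/- Tau+ animals and 4 from Ch25h+/+ Tau+ animals. These are 8 of the 16 libraries of the series, and they were chosen by their genotype labels alone. All 8 came from female mice aged 9 months, and both groups carry the tau allele, so what differs by label is whether Ch25h is present. The other 8 libraries, 4 Ch25h+/+ Tau- and 4 Ch25h-/- Tau-, enter the fit for the spread and serve below to show where Ch25h loss differed between the tau states. By label the tissue is frontal cortex, whereas the series' design text names the hippocampus. The tau allele, the promoter that drives it and the strain are not given in the sources used here. No label says whether the samples of a group came from separate animals, so p-values measure the spread between these samples, which may be technical.

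Ch25h encodes a hydroxylase, which turns cholesterol into an oxysterol and which macrophages and microglia make in response to interferon. The oxysterol is known to hold back SREBP, the transcription factor of cholesterol synthesis genes, and to activate LXR, the nuclear receptor that switches on cholesterol efflux genes such as Apoe. Microglia near tau or amyloid deposits are known to lower a resting gene set and to raise a disease-associated one with Trem2, Apoe, lysosomal proteases and MHC genes, while astrocytes there raise Gfap and Serpina3n.

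Depth was 15922498 to 24003425 counts in the Ch25h+/+ Tau+ libraries and 15530352 to 25602500 in the Ch25h-/- Tau+ libraries. The libraries differed in their makeup in a way that nearly follows the genotype. The ribosomal RNA transcript CT010467.1 took 111 to 475 CPM (the usual depth-scaled count unit, here on total counts) in the Ch25h+/+ Tau+ libraries and 153 in Ch25h-/- Tau+ replicate 1, but 2289 to 3886 in Ch25h-/- Tau+ replicates 2, 3 and 4. Malat1, a nuclear noncoding RNA, divided the same libraries, at 167 to 230 CPM in Ch25h+/+ and 236 in replicate 1 against 617 to 654 in replicates 2 to 4. The Spearman correlation across genes between a library's log ratio to the gene mean and gene GC content was 0.0829 to 0.346 in Ch25h+/+ and 0.152 in replicate 1, but -0.386 to -0.307 in replicates 2 to 4. All 4 Ch25h-/- Tau- libraries were rRNA-rich as well, taken as at least 1000 CPM, and no Ch25h+/+ library was. Genotype and library class therefore cannot be told apart in 3 of the 4 Ch25h-/- Tau+ libraries, and the main gene groups below are also given without replicate 1 and for replicate 1 alone. The value for replicate 1 alone comes from a fit with library class as a covariate, in which the only Ch25h-/- library left to compare is this one, assumed to vary as the other libraries do, so its values and counts describe 1 library and carry no replicate check.

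**Figure D1:**
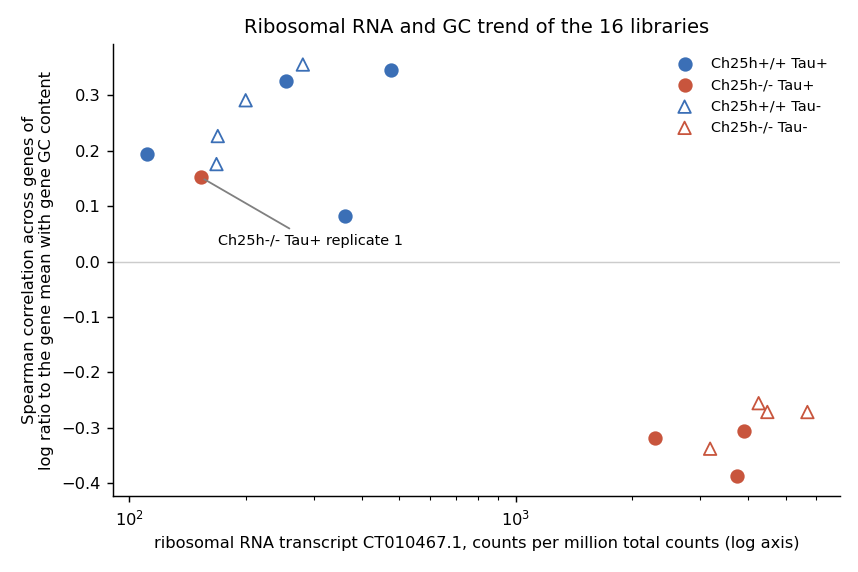
Ribosomal RNA transcript CT010467.1 in CPM on total counts (horizontal, log axis) against the Spearman correlation across genes with GC content (vertical), 1 point per library, for the 4 groups of 4. Ch25h-/- Tau+ replicate 1, at 153 CPM and a correlation of 0.152, lies among the 8 Ch25h+/+ libraries, and the other 7 Ch25h-/- libraries lie at 2289 CPM or more and at negative correlations.

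Ch25h itself (chromosome 19, 34473778 to 34475164, GRCm38) checks the genotype labels. Its level was 0.678, 1.26, 0.697 and 1.21 CPM (from here on with library sizes scaled by the TMM method) in Ch25h+/+ Tau+ replicates 1 to 4, from 11 to 30 counts, and 0 in all 4 Ch25h-/- Tau+ libraries. A count of 3 in the Ch25h-/- libraries would be 0.117 to 0.195 CPM, so the gene was at least 5.75-fold lower (0.963 ± 0.319 CPM, SD, n = 4, over the mean of that floor). The exact permutation p of 4 against 4 libraries (two-sided) was 0.0286, the smallest this design allows, or 0.0857 after adjustment over the 3 genes checked in this way. Prnp and Mapt, the prion protein and tau genes, were at 1677 ± 182 against 1620.2 ± 175 CPM (SD, n = 4) and 526 ± 43.2 against 513 ± 25.1 CPM (SD, n = 4) in Ch25h+/+ and Ch25h-/-, with exact permutation p of 0.629 and 0.657. Markers of cortical layers, such as Tbr1, summed to 1370.2 to 1482 CPM in Ch25h+/+ and 1463 to 1569 CPM in Ch25h-/-, and all 18 were detected. The 12 hippocampus markers, such as Prox1 and Wfs1, were all detected too and summed to 593 to 712 and 612 to 718 CPM. All 12 striatum markers and 7 of 8 thalamus markers were detected as well, so detection cannot tell which tissue was dissected. Choroid plexus markers such as Ttr ranged from 222 to 3648 CPM among the Ch25h+/+ and from 280.4 to 4104 CPM among the Ch25h-/- libraries.

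Across all genes, the clearest differences were lower levels of antigen presentation, microglial, complement, lysosomal and reactive astrocyte genes in Ch25h-/- Tau+, and the rises were smaller and mixed. Of 17736 genes tested, 629 (3.55%) passed an adjusted p of 0.05 (edgeR quasi-likelihood test, Benjamini-Hochberg over all genes). Among them 426 (2.4%) were lower and 203 (1.14%) were higher in Ch25h-/-, with median log2 fold changes of -0.60 and 0.41, while the median over all genes tested was 0.00. The 4 and the 4 libraries did not overlap for 1816 genes (10.2%), 1018 lower (5.74%) and 798 higher (4.5%), and for 507 of the 629. The total rested on single libraries, at 1685 genes once Ch25h-/- Tau+ replicate 1 was left out (982 lower, 5.54%, and 703 higher, 3.96%) and 104 without Ch25h+/+ Tau+ replicate 4.

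**Figure D2:**
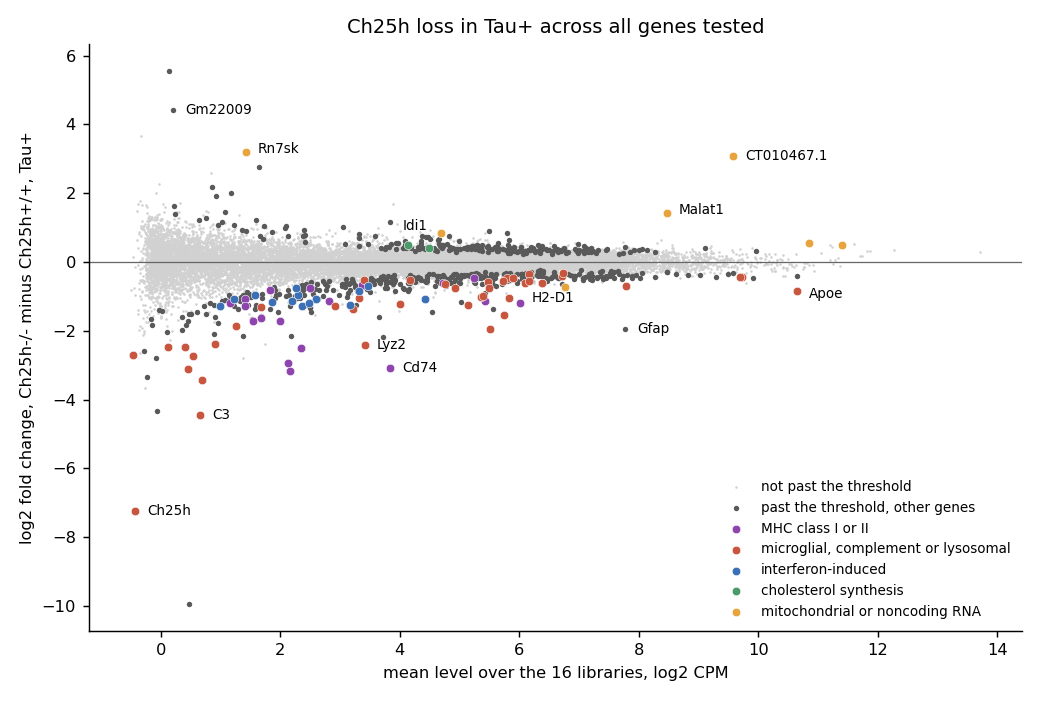
Log2 fold change of Ch25h-/- minus Ch25h+/+ in Tau+ (vertical) against the mean level over the 16 libraries in log2 CPM (horizontal), 1 point per gene, with the genes past an adjusted p of 0.05 in dark grey or coloured by list. MHC, microglial, complement, lysosomal and interferon-induced genes past the threshold lie below 0, such as Cd74 (MHC class II) at -3.08 and C3 (complement) at -4.45. The ribosomal RNA transcript CT010467.1 lies at 3.08.

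The calls also followed gene GC content. The median GC content was 49.6% over all genes tested, 55.1% over the genes called lower and 41.8% over those called higher. Among 10 bins with equal numbers of genes, the bin of lowest GC content (22.1% to 41.2%) held 88 genes called higher and 6 lower, and in the highest bin (57.9% to 78.3%) 2 were called higher and 117 lower. The median log2 fold changes of these bins were 0.22 and -0.21 here and 0.23 and -0.23 for Ch25h loss in the Tau- libraries. After correction of every library for its GC trend (GC-corrected offsets), 150 genes were lower (0.846%) and 37 higher (0.209%), of which 145 and 26 were among those first called in the same direction. Those offsets leave 9 lower and 3 higher calls in the lowest bin and 10 and 5 in the highest. Ch25h-/- replicate 1, whose GC trend lies within the Ch25h+/+ range, lay below all 4 Ch25h+/+ libraries for 382 of the 426 lower genes (89.7%) and above all 4 for 147 of the 203 higher genes (72.4%). Over all genes tested it lay below all 4 for 17.5% and above all 4 for 17.8%. Replicates 2 to 4 met this for 96.5% to 99.1% of the lower and 99.0% to 99.5% of the higher genes, and these shares are descriptions, since the same libraries made the calls.

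**Figure D3:**
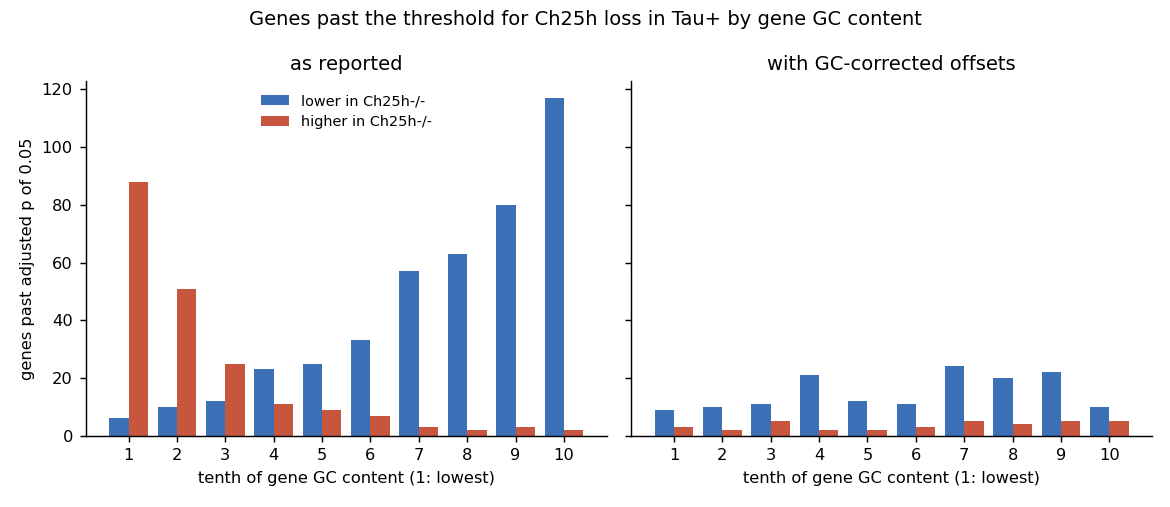
Number of genes past an adjusted p of 0.05 for Ch25h loss in Tau+ (vertical), lower and higher in Ch25h-/-, in 10 bins of gene GC content (horizontal), as first fitted and with GC-corrected offsets. The lower calls climb from 6 in the lowest bin to 117 in the highest and the higher calls fall from 88 to 2, and with the offsets every bin holds 9 to 24 lower and 2 to 5 higher calls.

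The 4 largest falls, among genes whose groups did not overlap and whose mean level reached 1 in log2 CPM, were all genes of MHC class II presentation. MHC class II molecules show peptides from engulfed protein to helper T cells, and in the brain they are made by activated microglia and border macrophages. Cd74, the invariant chain that chaperones them (chromosome 18, 60803848 to 60812652), was at 26.4, 134, 95.8 and 110.0 CPM in Ch25h+/+ replicates 1 to 4 and at 5.67, 8.97, 13.6 and 15.6 CPM in Ch25h-/- replicates 1 to 4. The groups did not overlap, Ch25h+/+ replicate 1 was the lowest of its group, and the log2 fold change was -3.08 ± 0.40 (SE) with an adjusted p of 4.82e-04. The class II chains moved with it. H2-Aa was at 5.97, 37.9, 23.5 and 27.4 CPM against 1.17, 2.34, 2.56 and 4.81 CPM, with a log2 fold change of -3.16 ± 0.47 (adjusted p 0.00146). H2-Ab1 (20.7 ± 11.5 against 2.74 ± 0.762 CPM, SD, n = 4) and H2-Eb1 (19.9 ± 10.7 against 3.50 ± 0.782 CPM, SD, n = 4) changed by -2.93 and -2.51, and in both genes Ch25h+/+ replicate 1 was again the lowest of its group, above every Ch25h-/- library. H2-DMb1, a subunit of the peptide exchanger, changed by -1.09 (adjusted p 0.0272). In all, 5 of 12 tested class II genes fell, against 2.4% of all genes, and none rose, with a list median of -1.02. Ciita, the master regulator of class II genes, at -0.39 (adjusted p 0.455), and Rfx5, at 0.03 (adjusted p 0.925), did not pass the threshold. The median was -0.95 without Ch25h-/- replicate 1, -1.14 for replicate 1 alone and -1.0 with GC-corrected offsets, and 5, 0 and 4 members were called. In bulk tissue, fewer cells of a type and less RNA per cell cannot be told apart.

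MHC class I genes, which present peptides from inside the cell to killer T cells, showed the call with the smallest p. H2-D1, a class I heavy chain (chromosome 17, 35262730 to 35267499), was at 119.7, 122, 132 and 111 CPM in Ch25h+/+ and at 51.8, 56.9, 52.5 and 53.3 CPM in Ch25h-/-. Both groups were tight and lay far apart, with a log2 fold change of -1.18 ± 0.09 (SE) and an adjusted p of 2.61e-06. H2-K1, another classical heavy chain, was at 79.8 ± 10.5 against 36.2 ± 1.20 CPM (SD, n = 4; log2 fold change -1.14, adjusted p 6.79e-05). B2m, the light chain of all class I molecules, was at 125 ± 11.3 against 81.4 ± 14.7 CPM (SD, n = 4; -0.61, adjusted p 0.00854), and replicate 1 was the lowest Ch25h-/- library. Psmb8, an immunoproteasome subunit that cuts peptides for loading, was at 5.75 ± 0.846 against 1.84 ± 0.379 CPM (SD, n = 4; -1.63, adjusted p 7.08e-04). Of the 22 tested genes of class I and peptide loading, 14 fell (against 2.4% of all genes) and none rose, with a median of -0.64. The median was -0.66 without Ch25h-/- replicate 1, -0.62 for replicate 1 alone and -0.56 with GC-corrected offsets, with 14, 3 and 6 members called lower. Leaving out a single library moved this count to 5 leaving out Ch25h-/- Tau+ replicate 3, 7 leaving out Ch25h-/- Tau+ replicate 4 and 9 leaving out Ch25h-/- Tau+ replicate 2. The general chaperones of the list were at -0.06 (Calr) and 0.03 (Pdia3) and did not pass. H2-Q6 (-1.72) and H2-Q7 (-1.71) are near-identical copies, and how reads were shared between them is uncertain.

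**Figure D4:**
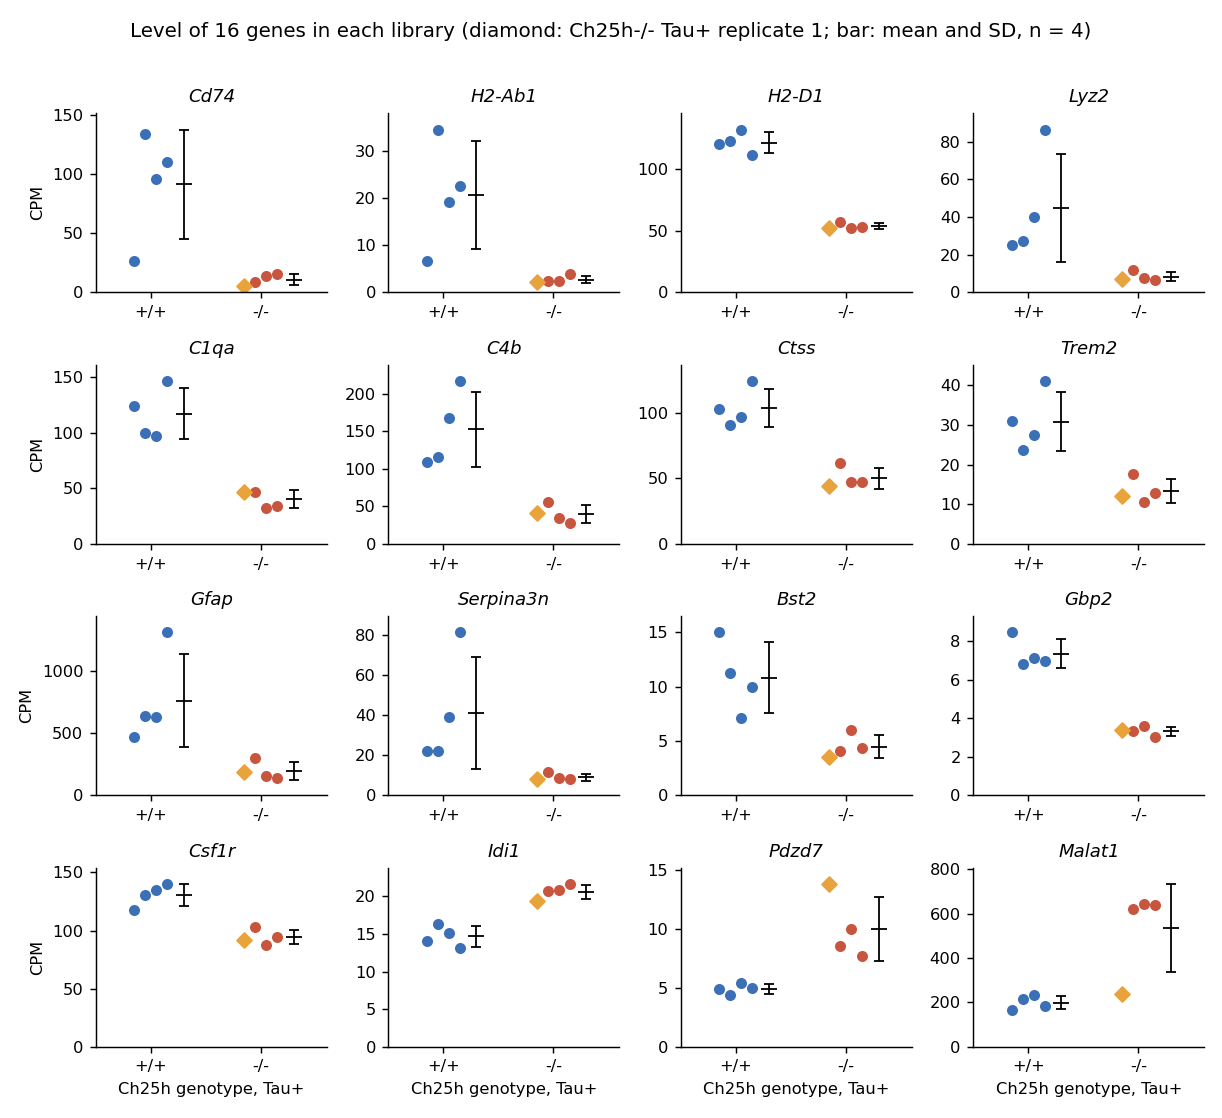
Level in CPM (vertical, from 0) of 16 genes in the 4 Ch25h+/+ Tau+ and the 4 Ch25h-/- Tau+ libraries (horizontal), with the mean and SD (n = 4) beside the points and Ch25h-/- replicate 1 as a diamond. Replicate 1 sits with replicates 2 to 4 for Cd74, H2-D1, C1qa, Trem2, Gfap and Idi1, at 5.67 CPM for Cd74, and stands apart from them for Malat1, at 237 CPM against 622 to 645 CPM.

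Disease-associated microglial genes had a median log2 fold change of -1.09, or -0.79 without Ch25h+/+ replicate 4. Of its 30 genes, 22 fell (against 2.4% of all genes) and none rose, and 29 were below 0 (against 49.3% of all genes); Ch25h is itself a member. Trem2, the lipid-sensing receptor of microglia, was at 31.0, 23.7, 27.6 and 41.1 CPM in Ch25h+/+ and 12.1, 17.6, 10.6 and 12.9 CPM in Ch25h-/- (log2 fold change -1.22 ± 0.16, adjusted p 4.32e-04). Tyrobp, its signalling adaptor, was at 18.0, 15.5, 17.5 and 25.3 CPM and 6.73, 9.03, 5.51 and 8.12 CPM (-1.38 ± 0.16, adjusted p 1.17e-04). For both genes Ch25h+/+ replicate 4 was the highest library and the groups did not overlap. Lyz2, lysozyme, was at 25.2, 27.4, 40.1 and 86.4 CPM against 6.89, 12.1, 7.90 and 6.81 CPM and changed by -2.42 ± 0.37 (adjusted p 0.00191). Apoe, the lipid carrier made by astrocytes and by activated microglia, was at 2456 ± 491 against 1369 ± 118 CPM (SD, n = 4; -0.84, adjusted p 0.00112). Itgax, the integrin CD11c, which was singled out after its values were seen, fell from 3.20, 9.30, 10.1 and 21.9 CPM to 0.469, 2.73, 0.341 and 0.749 CPM (-3.44, adjusted p 0.00344), and Ch25h+/+ replicate 1 was the lowest of its group. Spp1 (-1.14, adjusted p 0.0788), Gpnmb (-1.23, 0.146) and Lpl (-0.34, 0.241) did not pass. The median was -1.0 without Ch25h-/- replicate 1, -1.27 for replicate 1 alone and -1.06 with GC-corrected offsets, with 21, 1 and 19 members called, and the count was 14 leaving out Ch25h+/+ Tau+ replicate 4 or Ch25h-/- Tau+ replicate 3.

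Resting microglial genes changed less. Of 22, 5 fell (Csf1r, Tmem119, Cx3cr1 and Selplg among them; 2.4% of all genes fell), with a median of -0.18, and the count was 1 leaving out Ch25h+/+ Tau+ replicate 4 or Ch25h-/- Tau+ replicate 3, 2 leaving out Ch25h-/- Tau+ replicate 2 and 3 leaving out Ch25h+/+ Tau- replicate 2 or Ch25h-/- Tau+ replicate 4 or Ch25h-/- Tau- replicate 2 or 3. Csf1r, the growth factor receptor that microglia need to survive, was at 118, 130.2, 135 and 139.6 CPM in Ch25h+/+ and 92.1, 103, 88.0 and 94.7 CPM in Ch25h-/- (-0.47 ± 0.08, adjusted p 0.00404). P2ry12, the purine receptor of resting microglia, was at 0.23 (adjusted p 0.290), Siglech at 0.21 (0.416) and Sall1, a microglial transcription factor, at -0.16 (0.393), and none of these passed. With GC-corrected offsets 2 of the 22 were called lower and the list median was -0.18. For Ch25h-/- replicate 1 alone the median was -0.27. The whole list summed to 2112 to 2371 CPM in Ch25h+/+ and 1967 to 2133 CPM in Ch25h-/-, against 5626 to 7343 and 4079 to 4679 CPM for the disease-associated list. Apoe, which astrocytes also make, took a large part of the disease-associated sums and of their fall. As a mean of log2 CPM over members (0.5 CPM added), which weighs genes alike, the disease-associated list was at 4.65 to 5.44 and 3.68 to 4.21. The resting list was at 5.24 to 5.44 and 5.07 to 5.22. Of the 10 tested markers of border-associated macrophages, 9 were below 0 with a median of -0.63, and their sum was 41.8 to 60.6 against 30 to 46.4 CPM. Ms4a7 passed among them (-1.39, adjusted p 0.0370), and was lost in 6 of the 16 fits that left out 1 library; the part of these cells in the class II values was not tested. Most T cell markers, Cd3e and Cd8a among them, were too low to test, with at most 13 counts in any of the 8 libraries, and none of the 5 tested passed. None of 3 B cell and 7 neutrophil and blood markers passed either (lowest adjusted p 0.219 for Igkc and 0.529 for Ngp). How far the number of microglia moves with these results was not tested.

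Of 21 complement genes 9 fell (against 2.4% of all genes), among them the 3 chains of C1q. C1q, which tags synapses and debris for removal, is made of 3 chains from neighbouring genes on chromosome 4. C1qa (chromosome 4, 136895917 to 136898803) was at 124, 99.96, 97.2 and 146 CPM in Ch25h+/+ and 46.7, 47.0, 32.6 and 34.5 CPM in Ch25h-/- (-1.54 ± 0.14, adjusted p 1.35e-05). C1qb (76.0 ± 5.48 against 37.7 ± 8.35 CPM, SD, n = 4) and C1qc (68.5 ± 10.7 against 28.8 ± 6.05 CPM, SD, n = 4) changed by -1.01 and -1.25, with no overlap of the groups. C4b, the complement component that astrocytes and oligodendrocytes make in disease, was at 109, 116, 168 and 217 CPM against 41.5, 56.3, 34.1 and 27.9 CPM (-1.94 ± 0.25, adjusted p 4.82e-04); its near-identical neighbour C4a was at 0.27 (adjusted p 0.548), and the division of reads between them is uncertain. C3, the central component, was named after its values were seen. It ranged widely in Ch25h+/+ (1.36, 3.20, 7.58 and 27.5 CPM) and was low in every Ch25h-/- library (0.313, 0.455, 0.398 and 0.687 CPM), for a log2 fold change of -4.45 ± 0.76 (adjusted p 0.00427). None of the list rose, and it had a median of -0.72; the regulator Cd55 (-0.05) did not pass. The median was -0.67 without Ch25h-/- replicate 1, -0.70 for replicate 1 alone and -0.65 with GC-corrected offsets, and 9, 3 and 8 genes were called. Among Fc and pattern receptors 6 of 20 fell (median -0.64; 2.4% of all genes fell), and the count was 1 leaving out Ch25h+/+ Tau+ replicate 4 or Ch25h-/- Tau+ replicate 4 and 2 leaving out Ch25h-/- Tau+ replicate 3. Clec7a, a beta-glucan receptor of activated microglia, was at 4.25, 6.02, 7.39 and 10.6 CPM and 0.391, 2.47, 0.227 and 0.312 CPM (-3.12, adjusted p 0.00377), and Tlr2 and Cd14, which sense bacterial lipids, changed by -1.38 and -1.36.

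Lysosomal genes were lower too, by less. All 30 tested members were below 0 and 16 passed, against 49.3% and 2.4% of all genes, and the median was -0.44. Ctss, a microglial protease that trims the invariant chain (chromosome 3, 95526786 to 95556403), was at 103, 90.7, 96.4 and 124 CPM in Ch25h+/+ and 44.1, 62.0, 47.3 and 46.8 CPM in Ch25h-/- (-1.05 ± 0.11, adjusted p 8.70e-05). Ctsz, another cathepsin, was at 72.1 ± 11.9 against 36.2 ± 3.50 CPM (SD, n = 4; -0.99, adjusted p 2.53e-04), and Laptm5, a lysosomal membrane protein of immune cells, at 68.3 ± 12.7 against 40.2 ± 6.12 CPM (SD, n = 4; -0.77, 0.00151). Npc2, which lifts cholesterol out of the lysosome, fell from 72.6, 69.3, 62.7 and 81.0 to 46.1, 45.9, 49.4 and 54.3 CPM (-0.55 ± 0.08, adjusted p 0.00191). Its partner Npc1 (-0.05, adjusted p 0.854), the cholesteryl ester hydrolase Lipa (-0.08, 0.741) and the structural protein Lamp1 (-0.16, 0.162) did not pass. The median was -0.42 without Ch25h-/- replicate 1, -0.42 for replicate 1 alone and -0.33 with GC-corrected offsets, with 15, 1 and 11 called, against 8 leaving out Ch25h+/+ Tau+ replicate 4, 9 leaving out Ch25h-/- Tau+ replicate 3 and 10 leaving out Ch25h-/- Tau+ replicate 4.

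Of 43 tested genes induced by interferon 11 fell and 42 were below 0, against 2.4% and 49.3% of all genes, with a median of -0.85. Ch25h-/- replicate 2 lay below all 4 Ch25h+/+ libraries for 19 of the 43, against 37, 38 and 36 for replicates 1, 3 and 4. Over all genes tested these shares were 17.5% to 27.2%. Summed, the list was at 338 to 470 CPM in Ch25h+/+ and at 235, 302, 236 and 241 CPM in Ch25h-/-. Lgals3bp, a secreted glycoprotein, was at 55.6, 55.4, 39.7 and 41.1 CPM in Ch25h+/+ and 17.3, 26.2, 22.2 and 25.4 CPM in Ch25h-/- (-1.08 ± 0.18, adjusted p 0.00342). Bst2, which tethers virus particles to the cell surface, was at 15.0, 11.3, 7.11 and 9.94 CPM and 3.56, 4.09, 5.97 and 4.31 CPM (-1.27 ± 0.24, adjusted p 0.00863). In both genes Ch25h-/- replicate 1 was the lowest library of all 8. Ifitm3, which blocks virus entry, changed by -0.85 ± 0.19 (adjusted p 0.0244) and Parp14 by -0.76 ± 0.17 (0.0278). Irf7 (-1.15), Usp18 (-1.28) and Oasl2 (-1.19) passed too, while Isg15 (-0.86, adjusted p 0.233) and Ifit1 (-0.99, 0.101) did not. The median was -0.74 without Ch25h-/- replicate 1, -0.95 for replicate 1 alone and -0.89 with GC-corrected offsets, and 10, 0 and 6 members were called. The number called was 2 leaving out Ch25h+/+ Tau+ replicate 4 or Ch25h-/- Tau+ replicate 3 or 4, 3 leaving out Ch25h+/+ Tau+ replicate 1 and 6 leaving out Ch25h+/+ Tau- replicate 2. Of the 14 interferon-inducible GTPases, which attack the vacuoles of microbes, 4 fell (against 2.4% of all genes) and all 14 were below 0 (the count was 1 leaving out Ch25h-/- Tau+ replicate 3 and 2 leaving out Ch25h-/- Tau+ replicate 4). Ch25h-/- replicate 2 lay below all 4 Ch25h+/+ libraries for 6 of these 14, against 12, 9 and 7 for replicates 1, 3 and 4. Gbp2 was at 8.44, 6.82, 7.11 and 6.96 CPM against 3.36, 3.31, 3.58 and 3.0 CPM (-1.14 ± 0.21, adjusted p 0.00742). Ifit3 and Ifit3b are near-identical neighbours, so their separate values are uncertain.

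The promoters of the interferon-induced genes that fell are shown because interferon acts through a known response element, searched for here. The element was written as GAAA, 2 bases of any kind, GAAA, on both strands, from 250 bases before to 50 bases after the gene start (RefSeq promoters, GRCm38.p6). A match was found for 16 of 31 interferon-stimulated genes with a promoter in the table (51.6%) and for all 9 interferon-inducible GTPases with one. Over all genes tested the share was 3.62% (447 of 12354), over the genes that fell 6.44% (21 of 326) and over those that rose 4.61% (7 of 152). Of the 11 that passed, 8 had a promoter in the table (not Usp18, Rtp4 and Parp14) and 4 of these held a match. They are printed 5′ to 3′ with the GAAA or, on the other strand, TTTC letters of each match in capitals: Bst2 (chr8:71537423-71537722, minus strand), Ifitm3 (chr7:141010695-141010994, minus strand), Ifit3 (chr19:34583279-34583578, plus strand) and Ifit3b (chr19:34607707-34608006, plus strand).
Bst2: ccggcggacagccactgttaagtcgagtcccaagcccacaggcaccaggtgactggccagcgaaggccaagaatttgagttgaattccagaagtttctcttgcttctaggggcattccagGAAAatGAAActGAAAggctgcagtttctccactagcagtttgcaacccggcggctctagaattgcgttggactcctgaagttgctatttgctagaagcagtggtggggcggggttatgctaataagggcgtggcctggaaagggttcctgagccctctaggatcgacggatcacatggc
Ifitm3: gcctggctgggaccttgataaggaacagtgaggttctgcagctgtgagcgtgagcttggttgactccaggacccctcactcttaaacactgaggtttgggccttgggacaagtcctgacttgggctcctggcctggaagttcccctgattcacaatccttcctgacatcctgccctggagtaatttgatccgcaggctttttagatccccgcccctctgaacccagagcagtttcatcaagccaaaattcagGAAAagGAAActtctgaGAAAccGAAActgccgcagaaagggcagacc
Ifit3: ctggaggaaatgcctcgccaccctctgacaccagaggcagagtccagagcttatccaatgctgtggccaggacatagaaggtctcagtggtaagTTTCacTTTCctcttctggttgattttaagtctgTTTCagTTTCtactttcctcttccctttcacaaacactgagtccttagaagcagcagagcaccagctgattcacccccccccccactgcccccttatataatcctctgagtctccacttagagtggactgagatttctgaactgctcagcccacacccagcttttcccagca
Ifit3b: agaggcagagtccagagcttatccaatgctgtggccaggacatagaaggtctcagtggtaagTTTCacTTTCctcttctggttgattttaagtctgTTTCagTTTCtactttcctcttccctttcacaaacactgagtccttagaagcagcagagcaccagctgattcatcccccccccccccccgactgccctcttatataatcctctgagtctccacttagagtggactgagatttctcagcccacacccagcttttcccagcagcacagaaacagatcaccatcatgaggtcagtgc

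Each of these 4 windows held 2 matches, and those of Bst2 overlap by a shared GAAA. The log2 fold changes of the genes they belong to were -1.27 (Bst2), -0.85 (Ifitm3), -1.25 (Ifit3) and -0.96 (Ifit3b). The windows of Ifit3 and Ifit3b, 2 neighbouring genes, carry their matches in the same surrounding letters.

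Some cytokine and reactive astrocyte genes fell as well. Among chemokines and cytokines 6 of 17 tested fell, against 2.4% of all genes, and none rose (median -0.64; 2 leaving out Ch25h+/+ Tau+ replicate 4 or Ch25h-/- Tau+ replicate 3). Csf1, a ligand of Csf1r, was at 34.6, 33.4, 38.4 and 45.8 CPM in Ch25h+/+ and 25.2, 24.6, 26.3 and 21.8 CPM in Ch25h-/- (-0.64 ± 0.10, adjusted p 0.00183), and Il34, its other ligand, was at -0.04 (adjusted p 0.796). Ccl6 and Ccl4, which draw in immune cells, changed by -1.87 and -2.69, and Ccl4 lay at 1.49 CPM or less in every library. Tgfb1 changed by -0.78 (adjusted p 0.0138), whereas Il1b (-1.60, 0.0752) did not pass. Gfap, the intermediate filament of reactive astrocytes (chromosome 11, 102887336 to 102900912), was at 473, 637, 627 and 1312 CPM in Ch25h+/+ and 189, 302, 156 and 139 CPM in Ch25h-/-. Every Ch25h-/- library lay below every Ch25h+/+ library, replicate 4 was the highest Ch25h+/+ library, and the log2 fold change was -1.96 ± 0.27 (adjusted p 7.67e-04). Serpina3n, a protease inhibitor that astrocytes secrete, was at 22.1, 22.3, 39.3 and 81.3 CPM against 7.94, 11.6, 8.52 and 8.18 CPM (-2.19 ± 0.35, adjusted p 0.00263). Of 31 reactive astrocyte genes 11 fell (against 2.4% of all genes) and none rose, with a median of -0.62, and several of them, such as H2-D1 and Psmb8, are also MHC class I genes. The median was -0.65 without Ch25h-/- replicate 1, -0.84 for replicate 1 alone and -0.63 with GC-corrected offsets, with 10, 1 and 8 called, and 5 leaving out Ch25h-/- Tau+ replicate 3, 6 leaving out Ch25h-/- Tau+ replicate 4 and 7 leaving out Ch25h+/+ Tau+ replicate 4. Resting astrocyte genes had a median of -0.17, and 2 of 20 fell (against 2.4% of all genes): Mlc1, a membrane protein of astrocyte endfeet (-0.54), and the glycolytic enzyme Aldoc (-0.33). The count was 1 with GC-corrected offsets and 0 leaving out Ch25h+/+ Tau+ replicate 4 or Ch25h-/- Tau+ replicate 3 and 1 leaving out Ch25h-/- Tau+ replicate 2 or 4, and the median was -0.27 without Ch25h+/+ Tau+ replicate 1. Aqp4 (-0.11) and the glutamate transporters Slc1a2 (0.05) and Slc1a3 (-0.03) did not pass.

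Sterol genes are the known targets of the oxysterol pathway. Of 26 cholesterol synthesis genes 2 rose and none fell (1.14% of all genes were called higher), with a median of 0.14. Idi1, which isomerises the isoprenoid precursor, was at 14.0, 16.3, 15.2 and 13.1 CPM in Ch25h+/+ and 19.4, 20.7, 20.8 and 21.7 CPM in Ch25h-/- (0.49 ± 0.10, adjusted p 0.0140), with no overlap of the groups. Hsd17b7, a later enzyme of the pathway, changed by 0.41 ± 0.11 (adjusted p 0.0474). Neither passed with GC-corrected offsets (0.34 and 0.29) or for replicate 1 alone (0.40 and 0.38) or, of the single libraries, without Ch25h+/+ Tau+ replicate 4 or Ch25h-/- Tau+ replicate 3 or 4. With each of the 16 libraries left out in turn, Hsd17b7 failed to pass 12 times and Idi1 3 times. Leaving out Ch25h+/+ Tau+ replicate 2 gave 5 calls in the list, and leaving out Ch25h-/- Tau+ replicate 1 gave 6 higher and 1 lower. Insig1, which retains SREBP, was at 0.26 (adjusted p 0.122) and did not pass. The list median was -0.10 in the Tau- libraries. Among 18 LXR target genes 2 fell (2.4% over all genes), Apoe and Srebf1, and the median was -0.13. Srebf1, the regulator of fatty acid synthesis, was at 108, 105, 115 and 139 CPM against 86.7, 75.8, 68.8 and 84.6 CPM (-0.57 ± 0.10, adjusted p 0.00562), but with GC-corrected offsets it was -0.38 and did not pass. The efflux pumps Abca1 (-0.38, adjusted p 0.192) and Abcg1 (-0.13, 0.403) did not pass. Beside Ch25h and Npc2, no other gene of oxysterol and cholesterol turnover among 18 passed: Gpr183, the receptor for an oxysterol made from the Ch25h product, was at -1.02 (adjusted p 0.0621), and Cyp7b1, which makes that ligand, at -0.15 (0.474).

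The genes of neurons and oligodendrocytes mostly did not pass. No myelin gene of 20 and no oligodendrocyte precursor gene of 12 passed (medians -0.19 and -0.12), with Mbp at -0.41 (adjusted p 0.198). Without Ch25h-/- replicate 1, 5 myelin genes were called lower and 1 higher, and 2 precursor genes were called. With 1 library left out the medians ran from -0.33 to -0.07 (myelin) and from -0.19 to -0.07 (precursor). Gria2 and Gria3, subunits of AMPA glutamate receptors, rose among 24 excitatory synapse genes (1.14% of all genes rose), by 0.40 ± 0.09 (adjusted p 0.0305) and 0.30 ± 0.07 (0.0348). With 1 library left out the count was 0 (Ch25h+/+ Tau+ replicate 1 or 4, or Ch25h-/- Tau+ replicate 2, 3 or 4) or 6 (Ch25h+/+ Tau+ replicate 2 or Ch25h-/- Tau+ replicate 1). Gria2 was at 376, 537, 526 and 444 CPM in Ch25h+/+ and 586, 631, 626 and 642 CPM in Ch25h-/-, and with GC-corrected offsets it was 0.15 and Gria3 was 0.11, and neither passed. None of 20 presynaptic genes (median 0.06, Syp at -0.16 and Snap25 at 0.06; median -0.01 without Ch25h+/+ Tau+ replicate 1) and none of 22 immediate early genes (-0.24) passed. The immediate early median was 0.04 when Ch25h+/+ Tau+ replicate 2 was left out, and up to 2 of these genes passed in fits without 1 library. Of interneuron genes Npy, a peptide, was called (-0.48, adjusted p 0.0494), but 14 of the 16 fits that left out 1 library and the GC-corrected offsets did not call it. Gad1, Pvalb and Sst were at -0.04, -0.05 and -0.22 without passing. The layer marker Etv1 (0.39, adjusted p 0.0447) and, of endothelial and mural genes, Vtn, made by pericytes (-0.45, 0.0457), were called, and each was lost in 10 of those 16 fits and with GC-corrected offsets. No gene of vascular fibroblasts passed (median -0.42, from -0.64 to -0.31 with 1 library left out).

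Mitochondrial transcripts and several noncoding RNAs were high in the rRNA-rich libraries. Ch25h-/- replicate 1 lay within the Ch25h+/+ range for the mitochondrial sum (30878 against 27282 to 34388 CPM). The 14 tested nuclear and ribosomal noncoding RNAs summed to 6828 to 8228 CPM in Ch25h+/+. In Ch25h-/- replicates 1 to 4 they summed to 9623, 11701, 13723 and 10224 CPM. Of these RNAs 3 rose and 1 fell (1.14% and 2.4% of all genes), and the counts were the same with GC-corrected offsets. Their median was 0.39, and 0.23 for replicate 1 alone, and 1 was called without Ch25h+/+ Tau+ replicate 4. Of 15 mitochondrial genome transcripts 3 rose (median 0.49; 1.14% of all genes rose), and without Ch25h-/- replicate 1 the count was 12 (median 0.58; 3.96% of all genes), while replicate 1 alone gave -0.02. With GC-corrected offsets none was called and the median was 0.18. No transcript of this list passed when Ch25h+/+ Tau+ replicate 1 or 4 or Ch25h-/- Tau+ replicate 2, 3 or 4 was left out. mt-Nd4, a complex I subunit, was at 1949, 2241, 2518 and 2106 CPM in Ch25h+/+ and 2265, 3274, 3252 and 3648 CPM in Ch25h-/-, so that replicate 1 lay within the Ch25h+/+ range. The nuclear noncoding RNA Malat1 was at 164, 215, 233 and 186 CPM and 237, 622, 645 and 638 CPM (1.42 ± 0.28, adjusted p 0.0118), Rn7sk, which holds back transcription elongation, changed by 3.19 and CT010467.1 by 3.08. For replicate 1 alone these were 0.25, -0.83 and -0.96. Library class was defined by the level of CT010467.1, so the loss of its rise in that fit was fixed by the definition. Neat1, the RNA of nuclear paraspeckles, went the other way (-0.74, adjusted p 0.0339), with replicate 1 at 135 CPM, level with the lowest Ch25h+/+ library. Cytosolic ribosomal protein genes had 7 of 34 lower (0 to 11 when 1 library was left out; 2.4% of all genes) and a median of -0.26, which was -0.13 without Ch25h+/+ Tau+ replicate 1 and -0.22 in Tau-, and 1 was called with GC-corrected offsets. Of 27 nuclear genes of the respiratory chain 2 fell (against 2.4% of all genes), Ndufa2 (-0.62) and Ndufa1 (-0.55), and both were as low in Tau- (-0.65 and -0.55). Neither was called with GC-corrected offsets, and the list count was 0 to 9 when 1 library was left out. The part of library makeup in these values was not tested beyond the alternatives given.

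The largest rises among genes whose groups did not overlap and whose mean level reached 1 in log2 CPM lay between 0.86 and 1.42 on the log2 scale and included few genes of known function. They were Malat1, the mitochondrial cysteine tRNA mt-Tc, Pdzd7, Tnfrsf18 and 6 unnamed or antisense transcripts (Gm6566, Gm43622, Zfp85os, Gm13830, Gm26871 and Gm30371). Pdzd7, a scaffold protein of hair cell stereocilia, was at 4.87, 4.38, 5.44 and 5.0 CPM in Ch25h+/+ and 13.8, 8.51, 10 and 7.68 CPM in Ch25h-/- (1.03 ± 0.21, adjusted p 0.0153), with replicate 1 the highest library. Tnfrsf18, the costimulatory receptor GITR, was at 2.34, 2.94, 2.98 and 1.45 CPM against 5.79, 4.94, 3.64 and 4.75 CPM (0.98 ± 0.25, adjusted p 0.0378). Zfp85os changed by 1.05 ± 0.20 (adjusted p 0.00863), and it and mt-Tc passed in each of the 16 fits that left out 1 library. In those fits the call was lost in 13 for Gm6566, 12 for Gm26871, 11 for Gm30371, 6 for Tnfrsf18, 5 for Gm43622, 2 each for Pdzd7 and Gm13830, and 1 for Malat1. The largest falls by the same rule were H2-Aa, Cd74, H2-Ab1, H2-Eb1, Lyz2, Serpina3n, Pyroxd2, Gm8210, Gfap and C4b, so that 8 of the 10 belong to the MHC, microglial, astrocyte and complement lists.

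Genes near Ch25h are given apart, because DNA around an inactivated gene can come from another strain. Within 10 Mb of Ch25h 142 genes were tested, and 8 of them were lower and 2 higher (7.04% against 3.55% over all genes). Pyroxd2, a mitochondrial oxidoreductase (chromosome 19, 42725858 to 42752775), was at 10.6, 8.12, 9.48 and 10.6 CPM in Ch25h+/+ and 2.43, 1.43, 2.39 and 2.31 CPM in Ch25h-/- (-2.16 ± 0.23, adjusted p 6.79e-05). It was as low in the Tau- libraries, at -2.37. The other lower neighbours were Cd274 (the checkpoint ligand PD-L1, -0.80), Ifit3, Ifit3b, Hhex (-0.96), Pdlim1 (-0.65), Frat1 (-0.48) and Frat2 (-0.49), and the higher ones were Btaf1 (0.50) and Chuk (0.44). In Tau- Cd274 was at 0.14, Ifit3 at 0.12, Ifit3b at -0.36, Hhex at -0.27 and Pdlim1 at -1.02. Frat1 was at -0.48 there, Frat2 at -0.25, Btaf1 at 0.35 and Chuk at 0.33. The difference between tau states passed for none of these neighbours. Flanking strain DNA and the loss of Ch25h cannot be told apart for them.

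Whether Ch25h loss did more in Tau+ than in Tau- was tested as the difference of both contrasts, which share no library. It passed for 6 genes (0.0338%), Ctss, H2-D1, C1qa, Lag3, Cd74 and Rps27rt, all with a lower value in Tau+ (edgeR quasi-likelihood test, Benjamini-Hochberg), and 733 had an unadjusted p under 0.05. H2-D1 changed by -1.18 in Tau+ and -0.34 in Tau-, a difference of -0.84 ± 0.13 (SE, adjusted p 0.0222). For Cd74 the changes were -3.08 and 0.33, with a difference of -3.41 ± 0.58 (adjusted p 0.0405). C1qa (-1.54 and -0.28) and Ctss (-1.05 and 0.14) had adjusted p for the difference of 0.0222 and 0.0131. Lag3, an inhibitory receptor that binds MHC class II, was at 29.8, 29.5, 26.2 and 38.6 CPM in Ch25h+/+ Tau+ and 10.8, 12.6, 8.86 and 8.37 CPM in Ch25h-/- Tau+ (-1.61; Tau-, -0.32; adjusted p of the difference 0.0335). Rps27rt (-1.46 and 1.44) is a near-identical copy of the ribosomal protein gene Rps27, which was at 0.84 in Tau+, so the division of reads is uncertain. With 1 library left out the number ran from 0, without Ch25h-/- Tau+ replicate 3 or 4, to 25, without Ch25h+/+ Tau+ replicate 1. For the lists, the medians in Tau+ and Tau- stood at -1.09 and -0.12 for disease-associated microglia, -1.02 and 0.12 for MHC class II, -0.85 and 0.12 for interferon-stimulated genes and -0.62 and 0.05 for reactive astrocytes. Ribosomal protein genes stood at -0.26 and -0.22 and mitochondrial transcripts at 0.49 and 0.33, and no difference of list medians was tested.

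**Figure D5:**
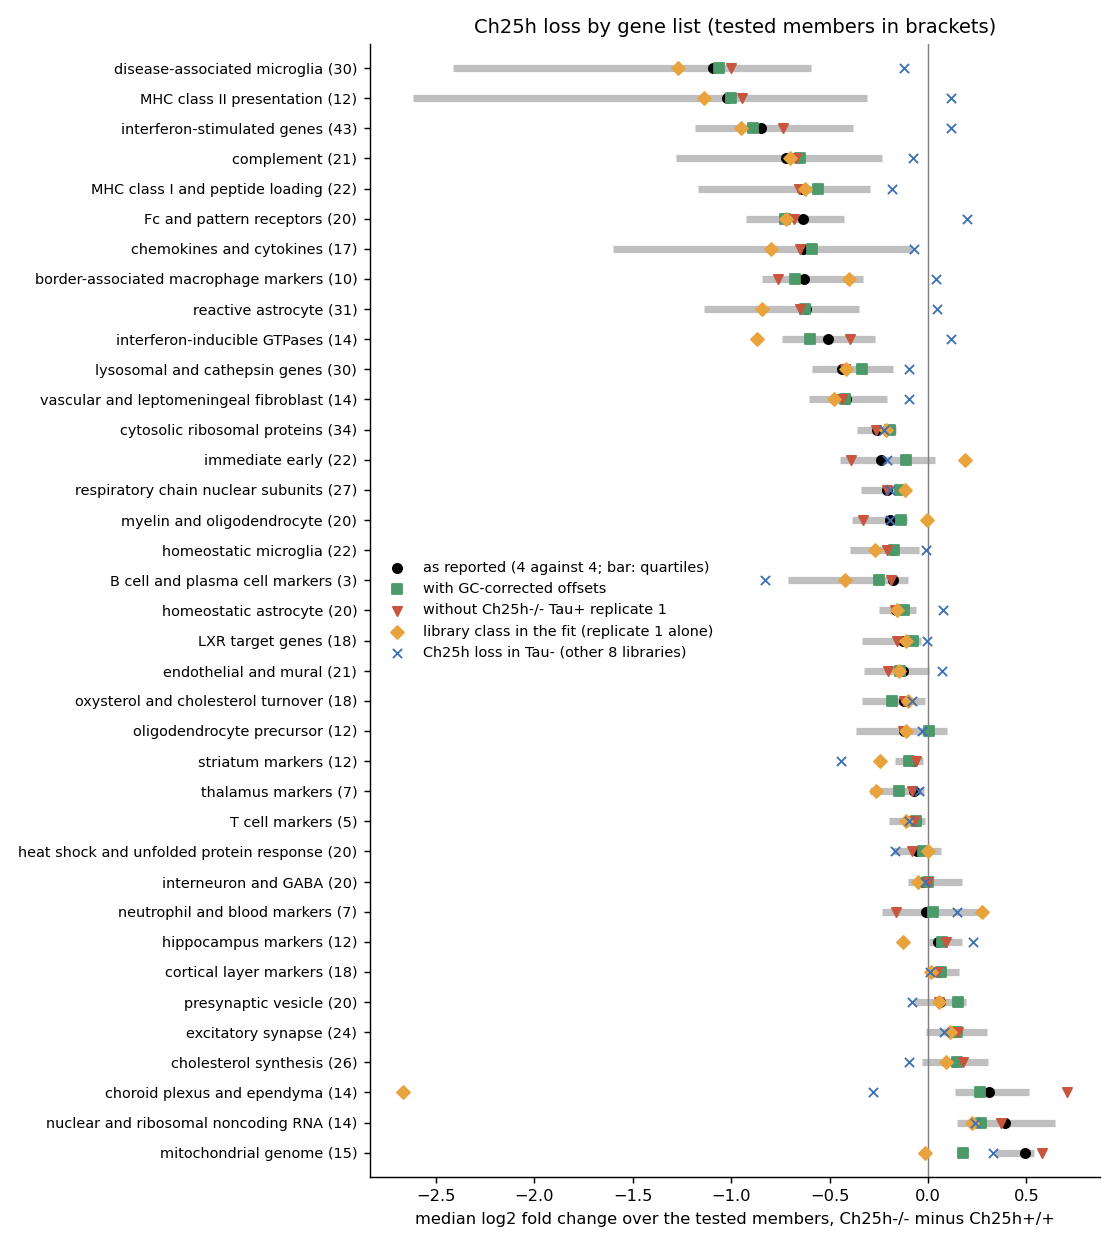
Median log2 fold change of Ch25h-/- minus Ch25h+/+ over the tested members of 37 gene lists (horizontal; number of members in brackets), in Tau+ as first fitted with the quartiles as a grey bar, with GC-corrected offsets, without Ch25h-/- Tau+ replicate 1, for replicate 1 alone, and in Tau-. The 4 Tau+ values of the disease-associated microglia list lie between -1.27 and -1.0 and its Tau- value at -0.12, whereas the mitochondrial genome list spans -0.02 to 0.58 in Tau+.

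In all 23 alternatives other than library class, in which each of the 16 libraries was also left out in turn, 73 genes (0.412%) passed in the same direction wherever they were tested, 68 lower and 5 higher. The 68 lower genes had a median log2 fold change of -1.24 in Tau+ and lay below all 4 Ch25h+/+ libraries in each of the 4 Ch25h-/- libraries, replicate 1 included. Both values are descriptions, since the same libraries selected these genes. By list the 68 held 12 disease-associated microglial, 8 complement, 6 lysosomal, 4 MHC class II, 4 MHC class I and 5 reactive astrocyte genes. Only 2 interferon-stimulated genes, 1 interferon-inducible GTPase and 1 resting microglial gene were among them. Of the 73, 36 were in no list. Those in no list, named after their values were seen, held regulators of myeloid cells, Spi1 (9.61, 7.28, 8.23 and 10.3 CPM against 3.68, 3.44, 3.75 and 4.12 CPM; -1.24, adjusted p 1.17e-04), Irf8 (-0.96) and Irf5 (-0.88). They also held Cyba (-1.35), which with the listed Cybb (-2.39) forms the core of the phagocyte oxidase, Mpeg1 (-1.17), a pore-forming protein of macrophages, and Cd52 (-1.78). The 5 that rose were Phtf1, Capza1, an actin capping protein, Lrrk2, a kinase of the endolysosome, mt-Tc and the small RNA Gm22009. Lrrk2 was at 41.1, 52.9, 46.4 and 42.7 CPM in Ch25h+/+ and 62.0, 65.2, 68.5 and 61.5 CPM in Ch25h-/- (0.49 ± 0.08, adjusted p 0.00520; Tau-, -0.01), with no overlap. In the fit for replicate 1 alone, which has no replicate check because the spread is taken from the other libraries, 9 genes were lower (0.0507%), H2-D1, C1qb, Ctss, B2m, C1qc, Lag3, C1qa and H2-K1 among them, and 1, Phtf1, was higher (0.00564%). All 10 were among the 629, and the log2 fold changes for replicate 1 alone were -1.23 (H2-D1), -1.44 (C1qb) and -1.23 (Ctss).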

How the data were processed

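The authors deposited 1 table of raw counts per gene for 16 libraries (54532 entries). Libraries were prepared from total RNA with a SMARTER mRNA-Seq kit, per the labels' protocols. Per the submitters' processing notes, reads were mapped with STAR 2.7 to GRCm38 (mm10). The counting tool and its strand setting are not given in the sources used here. Every column matched a sample by name, and 105 repeated and 27 date-like symbols were kept as listed.

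Counts were fitted with edgeR 4.0.16 (R 4.3.3; quasi-likelihood test, TMM, filterByExpr) over all 16 libraries with a mean for each group, adjusting p-values over 17736 genes. Alternatives were other size factors and filters, DESeq2 1.42.0, limma 3.58.1 with voom, library class, GC-corrected offsets, the 8 Tau+ libraries alone and leaving out each library. Positions and GC content came from GENCODE M21 (98.7% of symbols matched). The fits were tested on simulated data. Replicates are numbered in accession order.

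The comparison, gene lists and tests were chosen with earlier results of these data known. Named genes are the 10 largest rises and 10 largest falls past the threshold whose groups did not overlap and whose mean level reached 1 in log2 CPM, the 4 smallest p-values in each list, and those past the threshold for the difference between tau states. Other members are named as known examples of their list, after their values were seen. Some genes are not reported here.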

Additional observations from a re-analysis of the deposited data

Results flagged for a closer look

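In 198 groups of 4 libraries, 20 (10.1%) had 1 library far from the other 3, where chance flags about 1 in 20. Ch25h-/- Tau+ replicate 1 was the one apart for Malat1 (237 CPM against 622 to 645 CPM, or 236 against 617 to 654 CPM on total counts), for the correlation with GC content (0.152 against -0.386 to -0.307), and for Rps9 (133 CPM, the others 108 to 111 CPM), Rpl13 (267 CPM, the others 208 to 216 CPM), Ndufa2 (41.3 CPM, the others 29.8 to 30.2 CPM), Ifitm3 (7.36 CPM, the others 10.1 to 10.46 CPM) and the unnamed transcript Gm8210 (1.17 CPM, the others 0.187 to 0.341 CPM).

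Ch25h-/- Tau+ replicate 2 was apart for Serpina3n (11.6 CPM, the others 7.94 to 8.52 CPM), C1qc (37.8 CPM, the others 24.8 to 26.9 CPM), Clec7a (2.47 CPM, the others 0.227 to 0.391 CPM) and Pyroxd2 (1.43 CPM, the others 2.31 to 2.43 CPM). Replicate 3 of that group was apart for the immunoglobulin gene Igkc (1.14 CPM, the others 0.196 to 0.325 CPM), and replicate 4 for H2-Ab1 (3.87 CPM, the others 2.23 to 2.47 CPM).

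Among the Ch25h+/+ Tau+ libraries, replicate 4 was apart for the receptor genes Cd14 (9.57 CPM, the others 3.95 to 4.25 CPM) and Fcgr1 (6.82 CPM, the others 5.30 to 5.36 CPM) and for the GTPase Iigp1 (2.66 CPM, the others 3.81 to 3.91 CPM). Replicate 1 was apart for the GTPase Irgm1 (19.6 CPM, the others 14.2 to 14.7 CPM), the presynaptic gene Stx1a (437 CPM, the others 346 to 358 CPM) and Ndufa1 (35.1 CPM, the others 23.9 to 25.8 CPM).

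The change with Ch25h loss differed between Tau+ and Tau- (edgeR quasi-likelihood test, adjusted) for Ctss (difference -1.19), Rps27rt (-2.90), H2-D1 (-0.84), C1qa (-1.26), Lag3 (-1.29) and Cd74 (-3.41), all on the log2 scale.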

How the results depend on the processing

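For Ch25h loss in Tau+, 629 genes (203 higher, 426 lower) became 1397 (544, 853) with DESeq2, 1883 (817, 1066) with limma-voom and quality weights, 10 (1, 9) with library class, 187 (37, 150) with GC-corrected offsets and 119 (12, 107) in the 8 Tau+ libraries alone. Leaving out 1 library gave 104 to 1685 genes (10 to 703 higher, 94 to 982 lower). The total moved over 1.5 times once a single library was left out, namely Ch25h+/+ Tau+ replicate 1 (295), 2 (1301) or 4 (104), Ch25h+/+ Tau- replicate 2 (403), and Ch25h-/- Tau+ replicate 1 (1685), 2 (206), 3 (114) or 4 (153). The difference between tau states passed for 6 genes, and for 57 without a filter, 55 with DESeq2, 3 with library class and 0 to 25 with 1 library left out. It was 0 without Ch25h-/- Tau+ replicate 3 or 4 (edgeR, 698 and 744 genes at an unadjusted p under 0.05). With library class the log2 fold changes of mt-Nd3 (-0.26), CT010467.1 (-0.96) and Rn7sk (-0.83) reversed. The class was itself defined by CT010467.1. The CPM difference of Prnp, -124 to 29.0 with 1 library left out, reversed to 29.0 without Ch25h+/+ replicate 1 and 11.7 without Ch25h-/- replicate 3. The causes were not tested. Of 82 named genes that passed, 82 still did with DESeq2, 58 with GC-corrected offsets and 8 with library class. Of these 82, 38 passed in the 8 Tau+ libraries alone, and 38 without Ch25h+/+ Tau+ replicate 4 or Ch25h-/- Tau+ replicate 3. In the 8 libraries alone 13 disease-associated, 9 MHC class I, 8 complement, 6 lysosomal and 6 reactive astrocyte genes were called lower. So were 4 MHC class II genes, 2 interferon-stimulated genes, 1 interferon-inducible GTPase and 0 ribosomal protein genes. No paired analysis was possible because the labels give no replicate numbers. Ch25h rested on 11 to 30 counts per Ch25h+/+ library, so small changes of genes at that level were not detectable.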

Other observations

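A few gene groups outside the account above held single calls, against 2.4% of all genes called lower. Of 20 heat shock and unfolded protein response genes 1 fell, Atf3, a stress-induced transcription factor, which was at 1.72, 2.86, 2.18 and 4.34 CPM in Ch25h+/+ Tau+ and 0.978, 0.715, 0.227 and 0.625 CPM in Ch25h-/- Tau+ (log2 fold change -2.09 ± 0.43, adjusted p 0.0162). The groups did not overlap for Atf3, which failed to pass in 3 of 16 fits that left out 1 library, while the endoplasmic reticulum chaperone Hspa5 (0.04, adjusted p 0.837) and the stress factor Ddit3 (-0.19, 0.290) did not pass. Of 7 thalamus markers Prkcd, a protein kinase, was called lower (-0.64 ± 0.16, adjusted p 0.0370), but not in 4 of those 16 fits or with GC-corrected offsets. None of 12 striatum markers and none of 14 choroid plexus and ependyma genes passed. The choroid plexus list had a median of 0.31, which ran from -0.35 without Ch25h-/- Tau+ replicate 4 to 1.41 without Ch25h+/+ Tau+ replicate 2, and was -2.67 for Ch25h-/- Tau+ replicate 1 alone.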
